A study of Mus musculus with 6 samples.

Results

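The Ms4a genes encode small proteins that cross the cell membrane several times and are expressed in different leukocytes, the best known being CD20 on B cells. In the mouse they lie side by side in 1 cluster on chromosome 19, and different members mark B cells, T cells, monocytes, tissue macrophages and mast cells. The gene set described here was chosen by gene symbol: 8 Ms4a genes (Ms4a1, Ms4a4a, Ms4a4b, Ms4a4c, Ms4a6b, Ms4a6c, Ms4a6d and Ms4a7), picked with earlier results of these arrays known, of 19505 genes with a symbol in the platform annotation. The probe set of each gene was to be selected on the highest mean log2 value over the 6 arrays, but each measured member had 1 probe set, so that nothing was left to select. Of the 8, 7 were measured. Ms4a4a, a gene of macrophages, has no probe set named for it in the annotation used and is not analysed here.

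The arrays hold total RNA of microglia, the macrophages resident in the brain, collected at peak disease in experimental autoimmune encephalomyelitis (EAE), which models multiple sclerosis in mice. There were 3 samples labelled as B cell conditional knock-out (CKO) and 3 labelled as control, all from female C57BL/6 mice. Every mouse of both groups was immunized with recombinant myelin oligodendrocyte glycoprotein in incomplete adjuvant and received pertussis toxin. The series title ties the knock-out to B cells that express GM-CSF; the deleted gene, the Cre driver, the controls' alleles, the age of the mice and the way the microglia were isolated are not stated in the labels. The question is how such isolates differ when that B cell population is altered. Nothing in the labels says that the replicates are separate animals, so p-values cover only the spread among these 6 samples, and that spread may be technical.

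Some arrays stood apart. The interquartile range of log2 values was 3.08 and 3.11 on CKO replicates 2 and 3, and 3.66 to 4.0 on the other 4 arrays. The mean log2 value of 7 astrocyte markers was 13.54 on CKO replicate 1 and 12.07 on control replicate 2, against 9.03 to 9.72 on the others; 5 oligodendrocyte markers were likewise highest on these arrays, at 11.39 and 10.77, against 8.70 to 9.03. Results are also given with CKO replicate 1 alone against the controls, and with CKO replicates 2 and 3 against control replicates 1 and 3. Both settings were chosen after seeing the data. Where CKO replicate 1 is left out, every remaining CKO array has the narrow interquartile range and no control array has. Range and group cannot be told apart there. The label of the cells was checked on 12 microglia markers. Their mean lay between 16.51 and 17.03 in CKO and between 16.07 and 16.59 in controls. Neutrophil markers were high too: the mean of 7 lay between 14.80 and 15.25 in CKO and between 14.95 and 15.65 in controls. Among them, Ngp had 19.51, 19.51 and 19.55 in CKO, against 19.67, 19.62 and 19.23 in controls. The check therefore does not show that the isolates held microglia alone.

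All 7 measured Ms4a genes had lower mean values in CKO than in control isolates, by 0.59 to 4.05 on the log2 scale. The widest difference was that of Ms4a4b, a T cell gene, at 16.6-fold, followed by Ms4a7, a macrophage gene, at 5.97-fold, and Ms4a4c at 4.24-fold. For 6 of the 7, every CKO array lay below every control array; for Ms4a1, which encodes CD20, the groups overlapped. No member passed a two-sided limma test adjusted over all 22206 probe sets, the lowest adjusted p being 0.0804.

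Lower means in CKO were found for 44.2% of all probe sets, and groups apart in this direction for 8.48%. The median log2 fold change was -1.91 over the members, beside 0.06 over all probe sets. At an unadjusted p under 0.05, 6 members were lower, beside 6.35% of all probe sets. At an adjusted p under 0.05, 0 members and 0.00901% of probe sets were lower; at 0.1, 2 members (Ms4a4b and Ms4a6c) and 0.198%. Leaving out CKO replicate 1 brought 5 members (Ms4a4b, Ms4a6b, Ms4a6c, Ms4a6d and Ms4a7) under an adjusted p of 0.05, at 0.0123 to 0.0293, while 4.94% of all probe sets were then called lower. Leaving out control replicate 2 brought 2 under it, Ms4a4b (limma adjusted p = 0.0135) and Ms4a6c (0.0487), beside 0.563% of probe sets. These were isolates of many cells: fewer cells of a type and less RNA per cell cannot be told apart here.

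**Figure D1:**
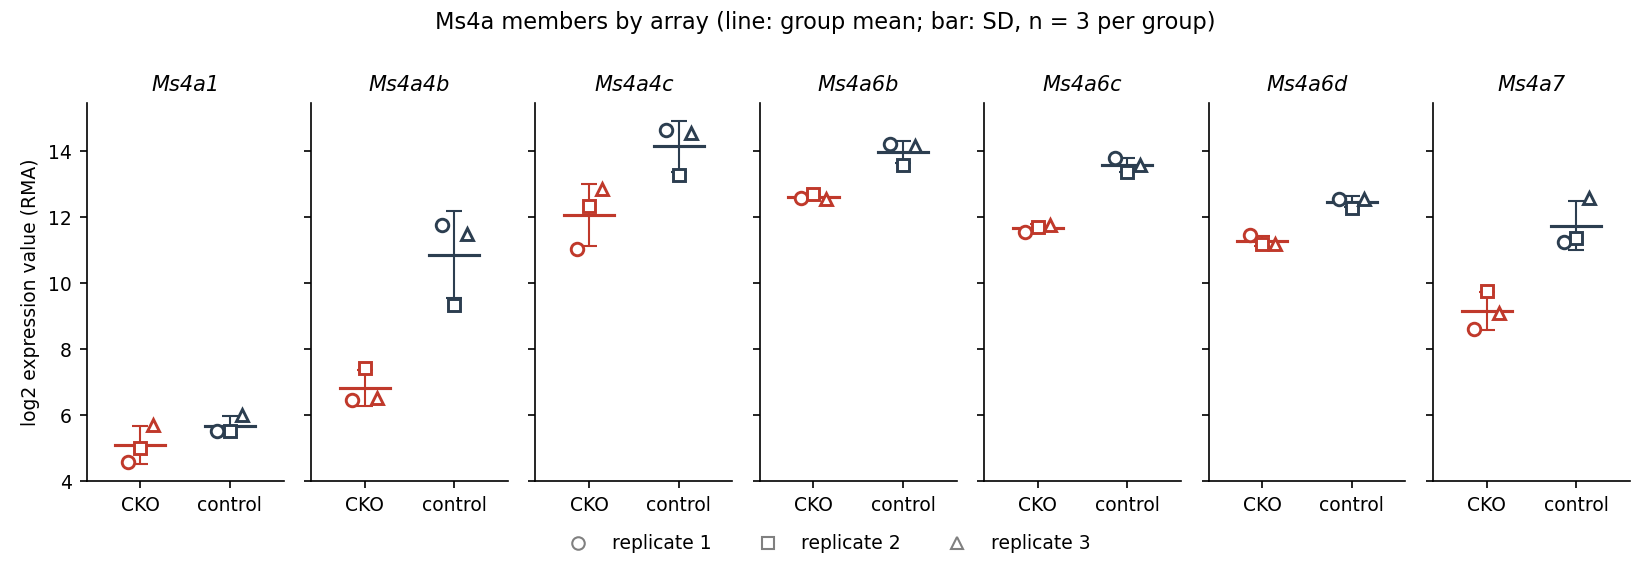
Log2 expression values (vertical axis) of the 7 measured Ms4a genes on the 3 CKO (red, left) and 3 control (dark, right) arrays; symbols mark the replicate, horizontal lines the group mean and bars the SD. In every panel but that of Ms4a1 the CKO points lie below all control points, and the gap between the groups is widest for Ms4a4b (1.9) and narrowest for Ms4a4c (0.41).

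Among genes known from B cells, Ms4a1 encodes CD20, a surface protein of B cells and the target of B cell depleting antibodies. It had log2 values of 4.57, 5.0 and 5.72 on CKO replicates 1, 2 and 3, against 5.51, 5.53 and 6.02 on control replicates 1, 2 and 3. CKO replicate 3 lay above 2 of the control arrays, so the groups overlapped. All but the highest of these values were below 5.8, the lower quartile of all values of the series. The difference was -0.59 (95% interval -1.40 to 0.22, limma adjusted p = 0.597), so that a difference of 0 and a lower level of more than 1 log2 unit both lie within the interval. It was -0.33 without CKO replicate 1 and -0.90 without CKO replicate 3, where the groups no longer overlapped, as was then so for 11% of all probe sets. It was -1.12 with CKO replicate 1 alone and -0.41 with CKO replicates 2 and 3 against control replicates 1 and 3.

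B cell and plasma cell genes are set beside it. Of 9 measured B cell markers, 5 were lower and 4 higher in CKO, the median difference being -0.22. Their mean value was 6.54 to 7.11 in CKO and 6.98 to 7.45 in controls. For 2 of the 9, the mean over all 6 arrays lay below the lower quartile. Cd22, a lectin of the B cell surface, differed by -2.22 and Cd79b, a signalling chain of the B cell receptor, by -0.88 (limma adjusted p = 0.0983 and 0.534). Of 6 plasma cell genes 4 were lower, the median difference being -0.47 with all arrays and -0.23 without control replicate 3. Jchain, which joins immunoglobulin polymers, differed by -4.98 and Prdm1, a transcription factor of plasma cells also used by other leukocytes, by -1.22 (adjusted p = 0.121 and 0.172). Over the B cell list the sign depended on the arrays: its median was 0.24 without CKO replicate 1, -0.005 without control replicate 2, and 0.23 with CKO replicates 2 and 3 set against control replicates 1 and 3.

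Ms4a4b encodes a membrane protein of mouse T cells that associates with the costimulatory receptor GITR and modulates T cell proliferation. Its log2 values were 6.47, 7.44 and 6.53 on CKO replicates 1, 2 and 3, against 11.76, 9.34 and 11.5 on control replicates 1, 2 and 3. Control replicate 2 lay between the CKO arrays and the other controls, 1.9 above the highest CKO array. The difference was -4.05 (95% interval -5.47 to -2.63, limma adjusted p = 0.0924). It was -4.40 with CKO replicate 1 alone against the controls, and -4.65 with CKO replicates 2 and 3 against control replicates 1 and 3. Tnfrsf18, which encodes GITR, had 6.28, 6.7 and 6.04 in CKO, against 8.43, 7.09 and 9.83 in controls (difference -2.11, adjusted p = 0.29), also with the lowest control value on replicate 2. With CKO replicates 2 and 3 against control replicates 1 and 3, Tnfrsf18 differed by -2.76 (limma adjusted p = 0.00949). In that setting 6.28% of all probe sets were called lower. With array weights Tnfrsf18 differed by -2.21 (limma adjusted p = 0.0413), beside 4.76% of all probe sets called lower. CKO replicate 1 had the lowest weight there, 0.258.

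T cell markers had the list profile closest to Ms4a4b, at a root mean square distance of 0.641 over the 6 centred log2 values. Monocyte markers followed at 1.26 and NK cell markers at 1.43. T cell markers were also the list closest to the macrophage gene Ms4a7, at 0.574. All 12 measured T cell markers, of 15 listed, were lower in CKO, 11 with groups that did not overlap, and the median was -2.89. By limma 0 passed over all probe sets and 12 had an unadjusted p under 0.05. Of all probe sets, 8.48% had groups apart in this direction and 6.35% were lower at that p. Their mean value was 7.16 to 7.94 on CKO arrays and 9.24 to 11.05 on control arrays. The low end of the controls was on replicate 2. None of the 12 had a mean over all 6 arrays, controls included, below 5.8, the lower quartile of all values. On CKO replicates 1 and 3 alone, Ctla4 lay under it, at 4.97 and 5.42. Cd3d and Cd3g, which encode chains of CD3 that signal for the T cell receptor, differed by -3.10 and -4.04 (limma adjusted p = 0.0745 and 0.107). Of 9 NK cell markers all were lower, at a median difference of -1.49 and a mean value of 6.64 to 7.30 in CKO and 7.45 to 8.74 in controls. Klrb1c, the NK1.1 receptor, differed by -1.49 and Klrc1, an inhibitory lectin receptor, by -2.02 (adjusted p = 0.231 and 0.247). With CKO replicate 1 alone and with CKO replicates 2 and 3 against control replicates 1 and 3, the medians were -3.24 and -3.34 for T cell markers and -1.76 and -1.25 for NK cell markers. The part of such cells in the Ms4a4b difference was not tested.

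Ms4a4c is found in monocytes and lymphocytes and is induced by interferon. It had 11.02, 12.33 and 12.85 on CKO replicates 1, 2 and 3, against 14.65, 13.26 and 14.54 on control replicates 1, 2 and 3. The groups did not overlap, but CKO replicate 3 and control replicate 2 were only 0.41 apart, the narrowest gap of the 6 separated members. The difference was -2.08 (95% interval -3.33 to -0.84, limma adjusted p = 0.231). Of the members it varied most between settings, at -3.13 with CKO replicate 1 alone against the controls and -1.56 without that array.

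The neighbouring genes Ms4a4c and Ms4a4b have similar promoters, which are shown because the members differ in how far they were lower. In the RefSeq windows of 250 bases before to 50 after the gene start (GRCm38.p6, plus strand), a stretch of 177 aligned bases was 89.8% identical. Capitals mark the longest run that both share, of 20 bases, which begins at position -38 of Ms4a4c and -41 of Ms4a4b, counted from the gene start.
Ms4a4c, chr19:11407411-11407710: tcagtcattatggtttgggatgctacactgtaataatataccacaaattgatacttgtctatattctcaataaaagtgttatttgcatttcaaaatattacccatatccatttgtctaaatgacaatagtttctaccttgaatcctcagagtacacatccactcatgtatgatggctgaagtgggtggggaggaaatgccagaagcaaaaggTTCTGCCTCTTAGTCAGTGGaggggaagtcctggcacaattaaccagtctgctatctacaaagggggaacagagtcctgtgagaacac
Ms4a4b, chr19:11443308-11443607: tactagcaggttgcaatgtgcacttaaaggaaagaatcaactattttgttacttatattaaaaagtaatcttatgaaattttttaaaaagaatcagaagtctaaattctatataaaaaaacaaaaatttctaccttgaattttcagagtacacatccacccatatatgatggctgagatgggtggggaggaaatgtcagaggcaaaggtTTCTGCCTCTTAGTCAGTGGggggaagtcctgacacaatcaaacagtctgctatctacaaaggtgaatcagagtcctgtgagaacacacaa
Their probe sets differed in level and change, and no other probe set of the table had the same 6 values as any member. Whether probes of these closely related genes pick up each other's RNA was not tested, since probe sequences were not used here.

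The Ms4a6 genes gave the tightest values. Ms4a6b is expressed by T cells and macrophages. It had 12.57, 12.69 and 12.55 on CKO replicates 1, 2 and 3, against 14.2, 13.59 and 14.14 on control replicates 1, 2 and 3. The CKO arrays agreed within 0.14, and the lowest control array, replicate 2, was 0.9 above them. The difference was -1.37 (95% interval -2.01 to -0.73, limma adjusted p = 0.14).

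Ms4a6c is a gene of monocytes and their macrophages. Its values were 11.56, 11.69 and 11.77 in CKO, against 13.78, 13.37 and 13.59 in controls. Both groups were narrow, with ranges of 0.21 and 0.41, and 1.6 apart, which gave the lowest unadjusted p of the members. The difference was -1.91 (95% interval -2.50 to -1.31, limma adjusted p = 0.0804), or 3.75-fold.

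Ms4a6d, also a macrophage gene, had 11.46, 11.18 and 11.2 in CKO, against 12.56, 12.27 and 12.56 in controls. Here CKO replicate 1 was the highest CKO array, not the lowest as for Ms4a4c and Ms4a7. The difference was -1.18 (95% interval -1.78 to -0.59, limma adjusted p = 0.167), or 2.27-fold.

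These 3 genes kept their sign in both settings that left out some of the arrays that stood apart. Neither setting left out all of those arrays. With CKO replicate 1 alone against the controls, Ms4a6b differed by -1.41, Ms4a6c by -2.02 and Ms4a6d by -1.0. With CKO replicates 2 and 3 against control replicates 1 and 3 the differences were -1.55 for Ms4a6b, -1.96 for Ms4a6c and -1.37 for Ms4a6d.

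Ms4a7 encodes a protein of monocyte-derived and border-associated macrophages that resident microglia are known to express little. It had 8.6, 9.77 and 9.11 on CKO replicates 1, 2 and 3, against 11.25, 11.37 and 12.59 on control replicates 1, 2 and 3. Unlike for the T cell gene Ms4a4b, control replicate 2 was not the lowest control, and control replicate 3 stood highest. The groups were 1.48 apart, and the difference was -2.58 (95% interval -3.60 to -1.55, limma adjusted p = 0.108). It was -3.14 with CKO replicate 1 alone against the controls and -2.48 with CKO replicates 2 and 3 against control replicates 1 and 3.

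Markers of monocytes and their macrophages were lower beside these myeloid members. All 12 measured were lower, 9 with groups apart, with a median of -2.01. By limma 0 passed over all probe sets and 9 had an unadjusted p under 0.05. The shares of all probe sets were 8.48% with groups apart in this direction and 6.35% lower at that p. Their mean value was 11.48 to 12.11 in CKO and 13.06 to 13.93 in controls, with the low end of the controls again on replicate 2. Fn1 (fibronectin) differed by -2.48 and Vim (vimentin), an intermediate filament protein, by -2.38 (limma adjusted p = 0.0745 and 0.0782). The monocyte median was -2.42 with CKO replicate 1 alone and -2.19 with CKO replicates 2 and 3 against control replicates 1 and 3. Border-associated macrophage markers were less uniform: 7 of 9 were lower, 4 with groups apart, and 2 higher, 1 with groups apart, with a median of -0.79 and a mean value of 8.94 to 9.16 in CKO and 9.42 to 9.86 in controls. Siglec1, a sialic acid receptor, differed by -1.45 and Clec12a, an inhibitory lectin receptor, by -1.78 (adjusted p = 0.108 and 0.138). Lyve1, which binds hyaluronan and is named after its values were seen, had 8.3, 8.55 and 8.44 in CKO, against 6.9, 7.43 and 6.98 in controls, and was the separated gene on the higher side (difference 1.33, adjusted p = 0.145). The list median was -0.37 without CKO replicate 2, -0.94 with CKO replicate 1 alone and -0.46 with CKO replicates 2 and 3 against control replicates 1 and 3.

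Markers of resident microglia did not share the direction of the Ms4a genes. Of 12, 9 were higher and 3 lower in CKO, with a median of 0.34. It was 0.73 with CKO replicate 1 alone and 0.20 with CKO replicates 2 and 3 against control replicates 1 and 3. Fcrls, a microglial Fc receptor-like gene, differed by 1.21 and Gpr34, a microglial lipid receptor, by 0.89 (limma adjusted p = 0.312 and 0.383). What part the mix of cells had in the lower Ms4a values was not tested.

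**Figure D2:**
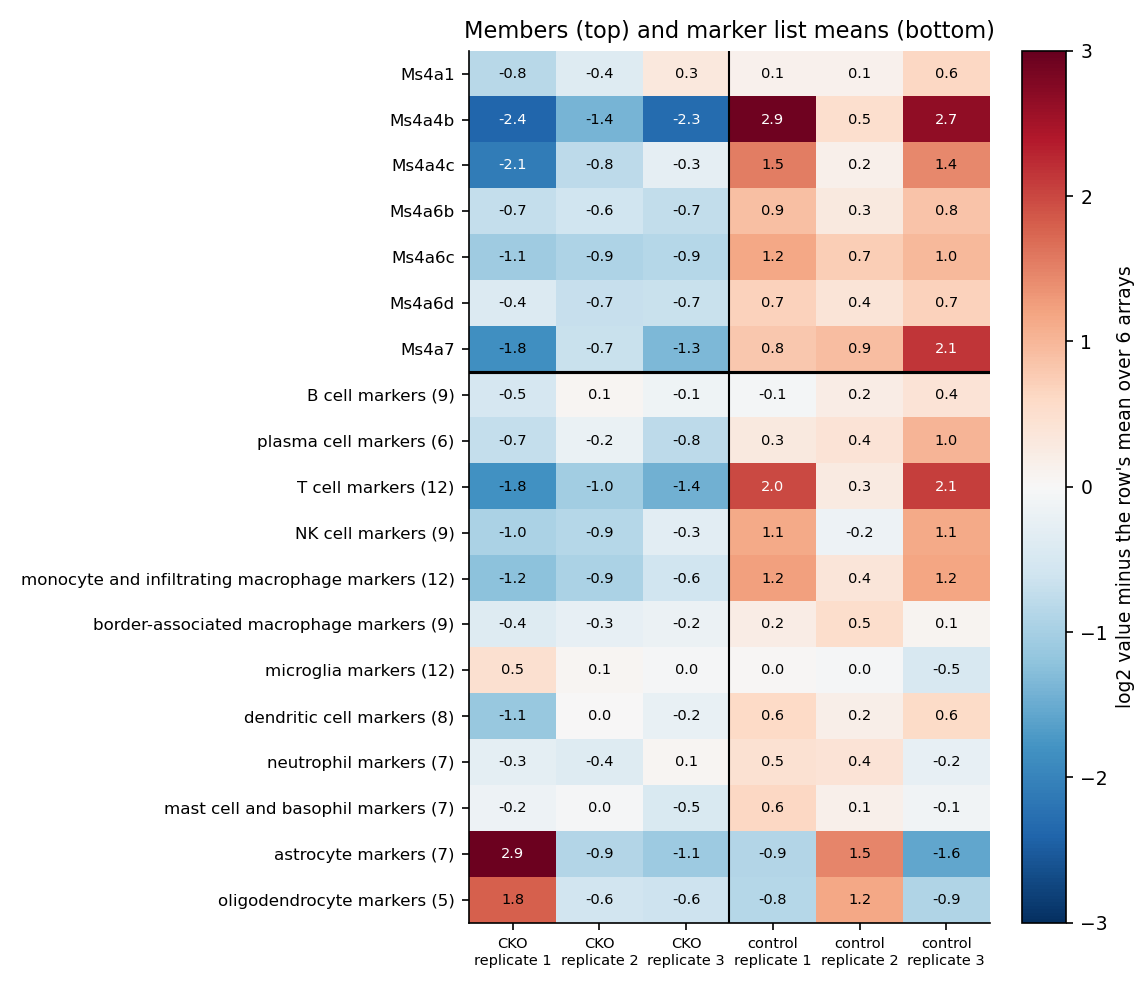
Log2 value minus the row's own mean over the 6 arrays, for the 7 Ms4a genes (above the line) and for the mean of each marker list (below it, number of measured genes in brackets); CKO arrays are left of the vertical line and control arrays right of it, red is higher and blue lower. T cell and monocyte markers are low on all 3 CKO arrays like Ms4a4b, Ms4a4c and Ms4a7. NK cell, plasma cell, border-associated macrophage and mast cell markers also lie below their mean on all 3 CKO arrays. Control replicate 2 is the control closest to the middle for T cell, monocyte, NK cell and dendritic cell markers. The same holds for the members other than Ms4a1 and Ms4a7. Astrocyte and oligodendrocyte markers stand out on CKO replicate 1 and control replicate 2.

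Promoter windows were found for 6 of the 8 members in the RefSeq table, 7 windows in all since Ms4a7 has a pair. Ms4a1 and Ms4a6d have no entry. Short forms of 3 motifs were searched on both strands: the core of the interferon-stimulated response element (ISRE), GAAANNGAA; the gamma-activated site (GAS) bound by STAT factors, TTCNNNGAA; and a site of the macrophage factor PU.1, GAGGAAGT. The ISRE core occurred in 4 of the 7 member windows, those of Ms4a6b, Ms4a6c and both of Ms4a7, and in 8.6% of all 32851 windows in the table. The GAS form occurred in 0 of the 7 and in 8.3% of all windows, and the PU.1 form in 0 and 3.2%; this says only that these letters are not in these windows. No matches overlapped in the member windows.

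The windows with the ISRE core are shown, for Ms4a7 the first of its pair, with the match in capitals. It begins at position -133 of Ms4a6c and -206 of Ms4a6b, both genes on the plus strand, and at position -71 of Ms4a7, a gene on the minus strand, where it reads in reverse (GRCm38.p6).
Ms4a6c, chr19:11469118-11469417: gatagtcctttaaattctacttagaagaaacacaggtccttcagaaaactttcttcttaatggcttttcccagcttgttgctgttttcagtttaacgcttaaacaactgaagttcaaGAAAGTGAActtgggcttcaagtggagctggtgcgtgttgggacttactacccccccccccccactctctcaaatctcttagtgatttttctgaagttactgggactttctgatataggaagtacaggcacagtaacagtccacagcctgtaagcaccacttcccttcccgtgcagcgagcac
Ms4a6b, chr19:11518309-11518608: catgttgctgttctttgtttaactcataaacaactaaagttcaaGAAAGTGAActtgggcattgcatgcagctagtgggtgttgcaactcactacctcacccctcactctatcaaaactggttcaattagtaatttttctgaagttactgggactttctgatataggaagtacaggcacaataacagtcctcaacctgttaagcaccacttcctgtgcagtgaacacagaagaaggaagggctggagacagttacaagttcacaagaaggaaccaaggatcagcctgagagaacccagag
Ms4a7, chr19:11336097-11336396: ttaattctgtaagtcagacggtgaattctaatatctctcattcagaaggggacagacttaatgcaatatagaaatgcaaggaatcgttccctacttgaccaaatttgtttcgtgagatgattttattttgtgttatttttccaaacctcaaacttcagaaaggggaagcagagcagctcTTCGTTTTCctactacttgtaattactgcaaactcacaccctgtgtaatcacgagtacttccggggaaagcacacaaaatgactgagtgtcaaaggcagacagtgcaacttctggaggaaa
The Ms4a6c and Ms4a6b windows are 89.6% identical over 202 aligned bases, which include the match, so these are not independent occurrences. A match is a description of the letters and does not show that a factor binds there. The windows of Ms4a4c and Ms4a4b, printed above, held no match to the short forms searched. Whether any of these motifs had a part in the lower CKO values was not tested.

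In RefSeq gene order the cluster holds 22 protein-coding genes, from Ms4a10 at its start to Ms4a3 at its end, and 19 of them had a probe set. The 6 members with separated groups lie in the later part of the cluster, from Ms4a7 to Ms4a6d, and Ms4a1 lies before them, next to Ms4a5. Within the run from Ms4a7 to Ms4a6d, 2 measured genes are no members. Ms4a4d had 6.64, 7.78 and 8.63 in CKO, against 8.61, 8.19 and 7.68 in controls, with overlapping groups (difference -0.48, limma adjusted p = 0.743). Gm8369, named after its values were seen, had 5.24, 6.26 and 6.13 in CKO, against 7.86, 5.98 and 7.85 in controls, again with control replicate 2 the lowest control (difference -1.35, adjusted p = 0.47).

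**Figure D3:**
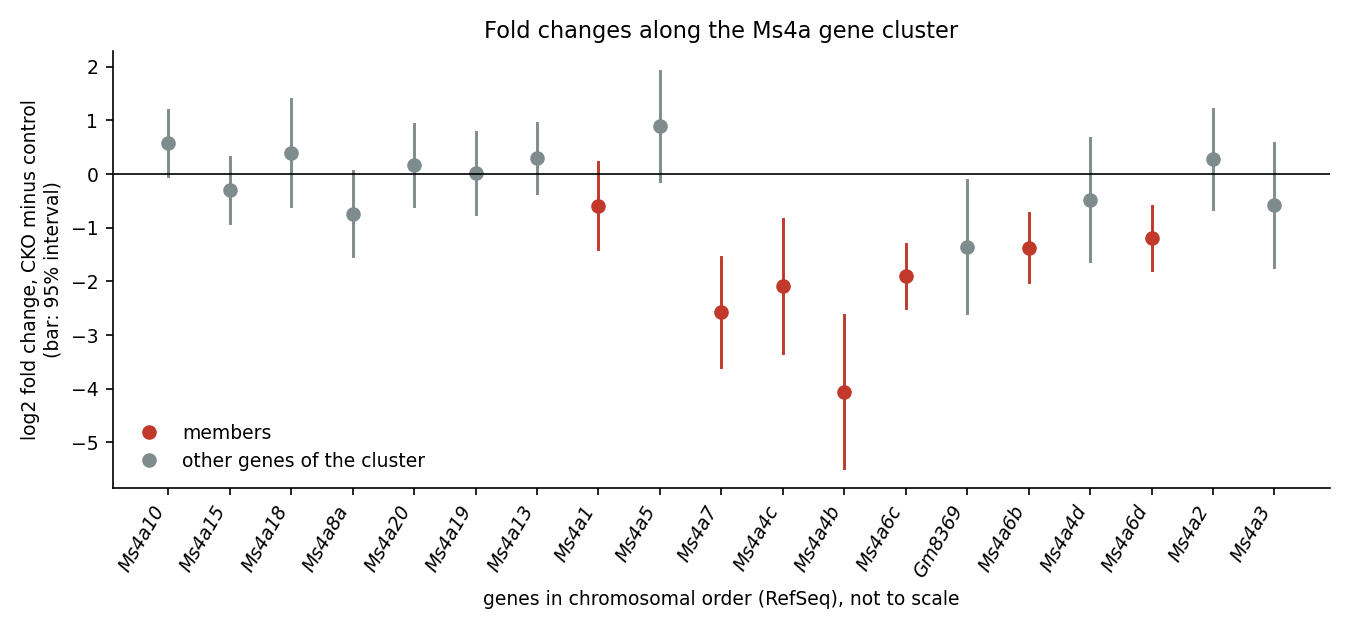
Log2 fold change, CKO minus control, with its 95% interval (vertical axis) for the 19 measured genes of the cluster in RefSeq order (horizontal axis, not to scale); members are red and other genes grey. The intervals of the 6 members from Ms4a7 to Ms4a6d lie below 0, those of Ms4a1 and of all grey genes but Gm8369 cross 0.

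The members had been picked with earlier results of these arrays known, so their contrast with other Ms4a genes is only a description. The other Ms4a genes and relatives, Gm8369 not among them, did not follow the members. Of 13 measured, 5 were lower and 8 higher in CKO, with a median of 0.17, differences from -0.74 (Ms4a8a) to 0.90 (Ms4a5) and no adjusted p under 0.519. The signs of Ms4a19, Ms4a20, Ms4a2, Ms4a3, Ms4a4d, Ms4a13, Ms4a18, Tmem176a and Tmem176b turned under other settings, and 7 of the 13 lay below the lower quartile of all values. Ms4a10 had 4.53, 4.72 and 4.76 in CKO, against 3.86, 4.09 and 4.33 in controls, all among the lowest values of the arrays (difference 0.58, limma adjusted p = 0.519). Its groups did not overlap, every CKO array lying above every control array. Ms4a15, Ms4a18, Ms4a19, Ms4a20 and Ms4a13 differed by -0.30, 0.40, 0.01, 0.17 and 0.30.

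Ms4a2 encodes the beta chain of the high-affinity IgE receptor of mast cells and basophils. It had 5.48, 6.3 and 5.36 in CKO, against 5.41, 4.8 and 6.07 in controls, low and overlapping (difference 0.29, limma adjusted p = 0.815). The partner chains of that receptor, Fcer1a and Fcer1g, differed by 0.14 and -0.96; Fcer1g is shared with Fc receptors of macrophages. The sign of Fcer1a turned under quantile normalization and cyclic loess. Fcer1g differed by -1.70 with CKO replicates 2 and 3 against control replicates 1 and 3 and by -1.35 with array weights (limma adjusted p = 0.0118 and 0.0499). In these settings 6.28% and 4.76% of all probe sets were called lower. The 7 mast cell and basophil markers were all lower, at a median difference of -0.33 (-0.66 when control replicate 3 was left out, -0.57 when CKO replicate 1 was and -0.21 when control replicate 2 was), and none had groups apart; Hdc, the enzyme that makes histamine, differed by -0.67 and Mcpt4, a mast cell protease, by -0.79 (adjusted p = 0.518 and 0.609).

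Ms4a3 marks progenitors of granulocytes and monocytes. It had 7.49, 5.76 and 6.8 in CKO, against 7.61, 7.7 and 6.47 in controls (difference -0.58, limma adjusted p = 0.699), with overlapping groups. Of 7 neutrophil markers, 5 were lower and 2 higher, with a median of -0.36 (-0.23 without control replicate 2 and -0.55 without control replicate 3); Camp, an antimicrobial peptide of granules, differed by -1.20 and Mmp8, the neutrophil collagenase, by -0.69 (adjusted p = 0.411 and 0.6). Dendritic cell markers were lower in 7 of 8 cases, with a median of -0.68 (-0.31 without CKO replicate 1 and -1.53 with that array alone); Ccl22, a chemokine, differed by -3.66 and Flt3, a growth factor receptor, by -0.81 (adjusted p = 0.145 and 0.472).

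The related genes Tmem176a and Tmem176b encode membrane proteins of macrophages and dendritic cells and lie elsewhere in the genome. Tmem176b had 16.5, 15.68 and 15.99 in CKO, against 16.11, 15.53 and 15.69 in controls (difference 0.28, limma adjusted p = 0.764). Tmem176a had 13.51, 11.93 and 12.22 in CKO, against 13.2, 12.7 and 12.84 in controls (difference -0.36, adjusted p = 0.775). The groups of both genes overlapped. Human MS4A proteins have been tied to the shedding of TREM2, a lipid receptor of microglia. Trem2 differed by -0.38 (adjusted p = 0.762), with overlapping groups, and its signalling adaptor Tyrobp by -0.67 (adjusted p = 0.495), with all CKO arrays below the controls. Without CKO replicate 1, Trem2 differed by -0.82 and Tmem176a by -0.84 (adjusted p = 0.128 and 0.0927); with that array alone they were higher in CKO, by 0.50 and 0.60. Clec7a, which was also listed, is not analysed here.

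The members also differed from each other in profile, measured as the root mean square distance over the 6 arrays between log2 values centred on each gene's mean. Ms4a6b and Ms4a6d were closest, at 0.179, and Ms4a6b and Ms4a6c lay at 0.293. Ms4a4b and Ms4a4c were 1.17 apart, and Ms4a1 and Ms4a4b, at 1.94, were farthest. Set against the marker lists, the closest list did not always match the cell type a member is known from. Ms4a7 lay closest to T cell markers (0.574), then monocyte markers (0.637), with border-associated macrophage markers at 1.18. Ms4a6b and Ms4a6d lay closest to plasma cell markers (0.314 and 0.322), with monocyte markers at 0.317 and 0.457. For Ms4a6b, NK cell markers were nearly as close, at 0.327. The plasma cell profile is a mean over 6 genes, in which Jchain differed by -4.98 beside a list median of -0.47. Closeness to it is therefore no likeness to plasma cell genes in general. Monocyte markers were closest to Ms4a6c (0.221) and Ms4a4c (0.429), and B cell markers to Ms4a1 (0.321). Distances grow with the size of a gene's changes and are given as a description.

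By the same measure, the named genes closest to Ms4a4b were Cd3g at 0.299, the T cell chemokine gene Ccl5 at 0.3 and Cd8a, the cytotoxic co-receptor, at 0.338. Those closest to Ms4a4c were Klrc1 at 0.198, Plbd1 at 0.23 and Cd4, the helper T cell co-receptor, at 0.258. Ms4a7 lay closest to H2-K1, an MHC class I heavy chain, at 0.262, the phosphatase gene Acp5 at 0.272 and Cxcr4, a chemokine receptor, at 0.333.

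Ms4a6b was nearest to Ifih1, a sensor of viral RNA, at 0.078, Cd48, a leukocyte adhesion protein, at 0.13 and Sh2d1b1 at 0.143. Ms4a6c was nearest to Atp8b4 at 0.133, Il1r2, a decoy receptor for interleukin-1, at 0.139 and Slc1a5, an amino acid transporter, at 0.206. Ms4a6d was nearest to Traf3ip3 at 0.096, the ribosomal protein gene Rpl7 at 0.099 and Taf6l at 0.104. For the low gene Ms4a1 they were Il31ra at 0.084, Wdr12 at 0.105 and Fscn3 at 0.12, none of which is in the B cell list. Nothing about shared function follows from such closeness over 6 arrays.

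**Figure D4:**
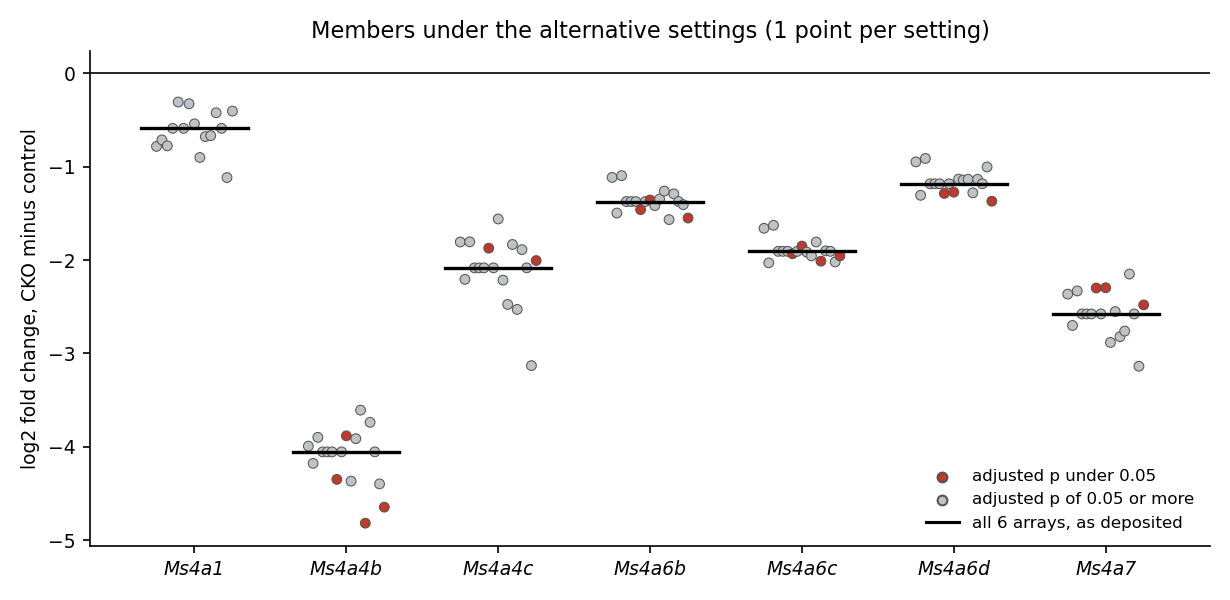
Log2 fold change, CKO minus control (vertical axis), of the 7 measured Ms4a genes under each alternative setting (1 point per setting, red where the adjusted p was under 0.05) with the black line for all 6 arrays as deposited. Every point lies below 0, the spread is widest for Ms4a4c (-3.13 to -1.56) and red points occur for the 6 members other than Ms4a1.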

How the data were processed

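Total RNA of each sample was hybridized to 1 Affymetrix array, per the labels' protocols. The deposited table holds log2 expression values per probe set, made by the authors with RMA, per the submitters' processing notes; the version and build are not given in those notes. The number of arrays limits the precision.

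Of 22206 probe sets, 19572 named 1 gene symbol in the platform annotation and 2634 none. limma 3.58.1 in R 4.3.3 (lmFit, eBayes, CKO minus control) was fitted to all of them, two-sided, with Benjamini-Hochberg adjustment at 0.05, and was tested on simulated data. Exact permutation of 3 against 3 arrays, with a smallest possible p of 0.1, was left out. The members, marker lists and tests were chosen with earlier results of these data known. Named were all members, the other Ms4a genes and partners, the 2 genes with the smallest p of each leukocyte list, and the 3 closest profiles per member. Gene models and antigen receptor segments were left out of the closest profiles. Promoters are from RefSeq (GRCm38.p6) and were aligned locally with Biopython 1.88, a step chosen after seeing them. A planned comparison of proteins was not made. Alternatives were the normalization, filters on dim probe sets, other variance settings, array weights, the replicate block and leaving out arrays.

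The samples were not treated as paired by replicate number in the main fit. Deviations of same-numbered arrays correlated at -0.005, -0.23 and 0.254 across probe sets, beside 0.304 for CKO replicate 1 with control replicate 2. Whether same-numbered samples were handled together cannot be told from these values.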

Additional observations from a re-analysis of the deposited data

How the results depend on the processing

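All 7 measured members kept lower CKO means in every setting tried that tested them (Ms4a1 was removed by leaving out the dimmest 20% or 50% of probe sets). With no member called as deposited, 6 were called with array weights (4.76% of all probe sets were then called lower), 6 with CKO replicates 2 and 3 against control replicates 1 and 3 (6.28%; chosen after seeing the data), 2 at an adjusted p of 0.1, and 0 to 5 when 1 array was left out. The array weights were 0.258 for CKO replicate 1, beside 1.049 and 1.428 for CKO replicates 2 and 3, which have the narrow interquartile range. Range and group are therefore largely mixed in that setting too. The replicate block left 0 called. The members' median of -1.91 was -1.66 under quantile normalization, -1.63 under cyclic loess, and -2.01 to -1.56 with 1 array left out. The causes were not tested.

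Signs of other genes turned. Under quantile normalization, cyclic loess and median centring Ms4a19 differed by -0.15, -0.17 and -0.11; under the first 2, Ms4a20 differed by -0.0175 and -0.0171 and Fcer1a by -0.039 and -0.062. With CKO replicate 1 alone (also chosen after seeing the data), values were 0.23 for Ms4a3, -0.03 for Ms4a13, -0.53 for Ms4a18, -0.43 for Ms4a20, 0.60 for Tmem176a, 0.50 for Trem2 and -0.61 for Fcer1a. With CKO replicates 2 and 3 against control replicates 1 and 3, Ms4a4d, Ms4a19 and Tmem176b differed by 0.06, -0.04 and -0.065, and Trem2 and Tmem176a by -1.03 and -0.945. With 1 array left out, values ranged from -0.95 to 0.045 for Ms4a4d, -0.23 to 0.22 for Ms4a19, -0.027 to 0.61 for Ms4a2, -0.017 to 0.47 for Ms4a20 and -0.067 to 0.51 for Fcer1a.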

Other observations

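Genes that flank the Ms4a cluster were read in RefSeq order, the 6 nearest protein-coding genes with a probe set on each side, a choice made after the members' values were known. Of these 12, 7 had lower means in CKO and 5 higher. Ccdc86, a nucleolar protein gene that lies just before Ms4a10, had log2 values of 7.71, 7.32 and 7.43 on CKO replicates 1, 2 and 3, against 8.41, 7.76 and 8.78 on control replicates 1, 2 and 3, groups that did not overlap (difference -0.83, limma adjusted p = 0.464). On the other side, Oosp3 had 6.36, 8.26 and 8.1 in CKO, against 6.2, 6.4 and 6.95 in controls (difference 1.06, adjusted p = 0.532), with overlapping groups, and Mrpl16, which encodes a mitochondrial ribosomal protein, differed by -0.48. None of the 12 passed over all probe sets by limma, and 1 of them, Ccdc86, had an unadjusted p under 0.05. Over all probe sets, 6.35% were lower at that p and 8.48% had groups apart in this direction. A count of 1 in 12 is near those shares.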
